A study of Mus musculus with 12 samples.

Results

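The 10 genes described here are 7 annexins (Anxa1 to Anxa7) and the S100 genes S100a6, S100a10 and S100a11, chosen by their symbols and followed through 12 arrays of whole mouse liver. All 10 of the 10 symbols were found on the array, with 18 probes, and 15 of these probes were detected on enough arrays to be tested, so that every gene kept at least 1 probe. They belong to 10711 genes measured in these livers, of 19057 that the platform names.

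Annexins are calcium-dependent proteins that bind the inner face of membranes rich in acidic phospholipids, where they organise membrane traffic, cortical actin and the resealing of torn membrane. Several annexins carry out this work in a complex with a dimer of small EF-hand proteins of the S100 family, the best known being annexin A2 with S100A10, which at the cell surface gathers plasminogen and its activator tPA. In healthy liver annexins A5 and A6 are present in hepatocytes, while annexins A1 and A2 and several S100 proteins are typical of bile duct cells, macrophages and activated stellate cells, and annexin A2 is known to increase in hepatocytes of injured and regenerating liver.

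The livers came from mice of 2 months of age, 4 in each of 3 groups, and all mice in all 3 groups carried the floxed Atg7 gene (Atg7 FF). Atg7 encodes an enzyme needed to form autophagosomes. Atg7 KO mice also carried Alb-Cre, driven by the albumin promoter, which is active in hepatocytes, and all 4 were male. The second group carried Olig1-Cre, driven by the promoter of Olig1, a transcription factor known from the oligodendrocyte lineage of the brain, and held 1 male and 3 females. The labels list both Cre groups as conditional Atg7 knockouts. The controls were Atg7 FF mice without Cre, 1 male and 3 females, 2 from each of the Alb and Olig1 lines. Replicate numbers only name a liver.

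Each of the 2 chips held 2 livers of each group. Between 34.2% and 43.9% of the probes were detected per array, lowest on control replicate 1, whose median signal of 79.8 lay below the 88.8 to 96.9 of the other 11 arrays. Of 7 hepatocyte markers measured, 4 fell in Atg7 KO livers, led by Pck1, the gatekeeper of gluconeogenesis, with a log2 fold change of -2.27. The summed log2 level of the 7 was 15.64 to 15.78 in controls, 15.33 to 15.67 in Olig1-Cre livers and lower, at 15.18 to 15.33, in Atg7 KO livers, which did not overlap the controls. The single Atg7 probe was detected on 2 of 12 arrays and could not check the deletion in either Cre group. Values below are deposited log2 signals, in which a difference of 1 is a doubling of the background-corrected signal plus an offset of 16, so that changes of dim genes are understated. Levels are compared between livers for 1 gene and never between genes, because probes differ in brightness. A gene is said to have risen or fallen where limma's adjusted p over all 10711 genes was below 0.05.

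Most of these genes were higher in Atg7 KO livers than in control livers. Of the 10 genes, 7 rose, none fell (0) and 3 missed the threshold, whereas 19.5% of all genes tested rose and 15.3% fell. In 6 of the 10, every Atg7 KO liver lay above every control liver, which was so for 19.4% of all genes. The median log2 fold change over the 10 genes was 1.05, beside -0.01 over all genes tested. S100a11, Anxa2 and Anxa5 changed most and Anxa6, Anxa7 and S100a10 did not pass. The plot of all livers shows these levels.

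**Figure D1:**
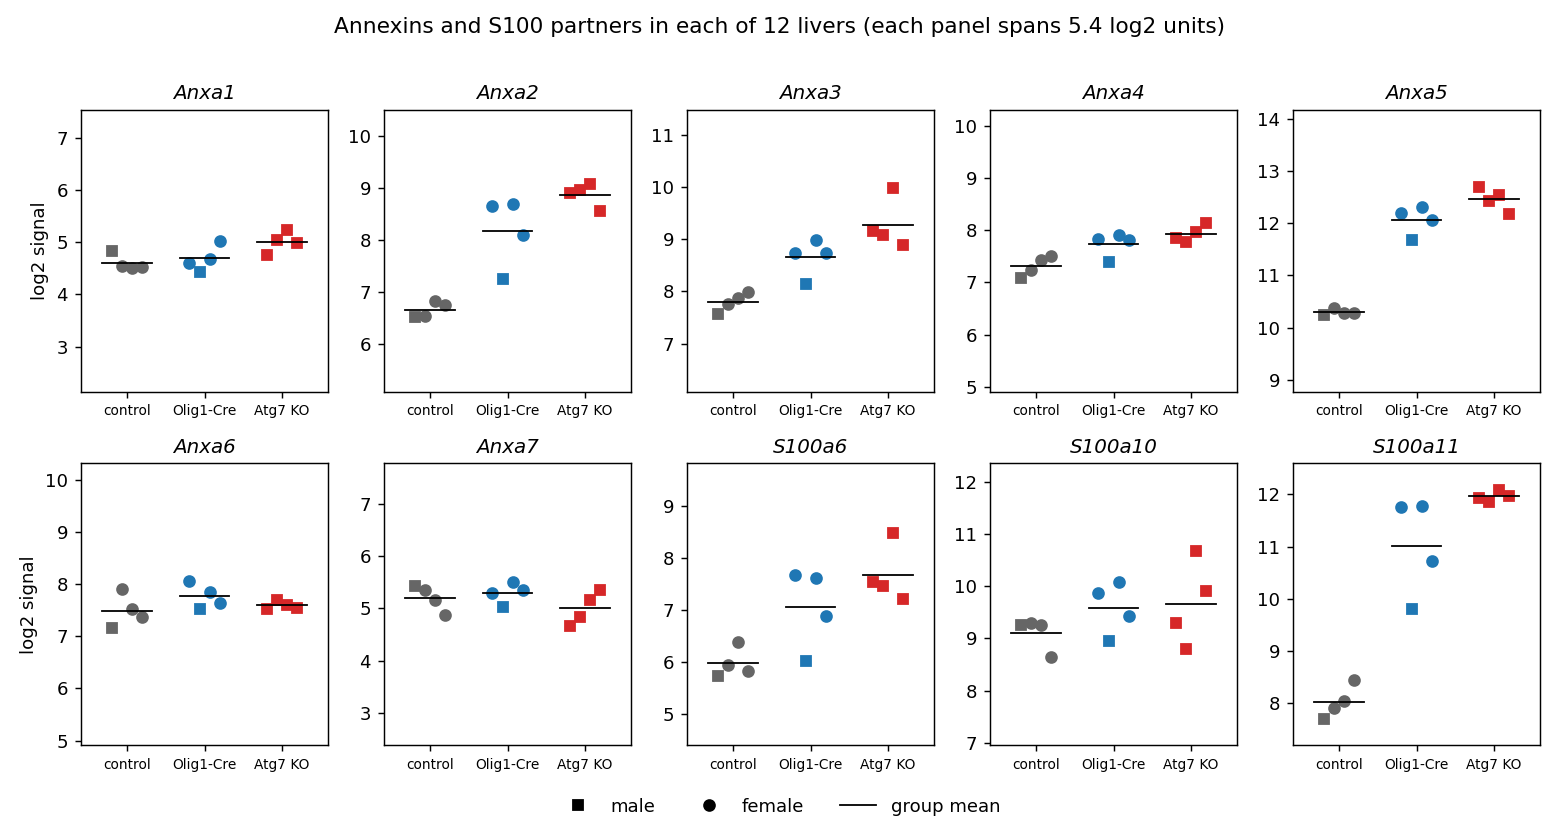
Log2 signal of each gene (y axis, every panel spanning the same range) in the 12 livers by group (x axis), squares for males, circles for females and a line for the mean of 4. S100a11 sat between 7.70 and 8.44 in controls and between 11.85 and 12.08 in Atg7 KO livers, while the groups overlapped for Anxa1, Anxa6, Anxa7 and S100a10.

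S100a11 encodes a calcium sensor that binds annexins A1 and A2 and takes part in actin remodelling and membrane repair. Its log2 signals were 7.70, 7.91, 8.05 and 8.44 in controls 1 to 4. They were 11.94, 11.85, 12.08 and 11.97 in Atg7 KO livers 1 to 4. The Atg7 KO livers lay close together (SD 0.096) and far above all controls. Before normalization the bead signals were 133.5, 256.2, 283.8 and 351.2 in controls against 4513.1, 3656.4, 5323.4 and 5062.8 in Atg7 KO livers. The log2 fold change was 3.94 ± 0.16 (SE, n = 4 per group, limma adjusted p = 1.09e-07), a 15.3-fold difference, and it ranked 24 of 10711 genes by size. The exact permutation test gave its smallest possible p for 4 against 4, 0.0286 over 70 relabellings (two-sided).

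Anxa2 encodes annexin A2, which links membrane to actin and, with S100A10, binds tPA and plasminogen. The gene value, the median of 2 probes, was 6.52, 6.54, 6.83 and 6.75 in controls and 8.91, 8.96, 9.07 and 8.55 in Atg7 KO livers. All Atg7 KO livers were above all controls, with a log2 fold change of 2.21 ± 0.15 (SE, limma adjusted p = 4.01e-06), or 4.63-fold. The bright probe alone gave 8.82, 8.73, 9.25 and 9.21 in controls and 11.96, 12.07, 12.18 and 11.84 in Atg7 KO livers, a log2 fold change of 3.01 ± 0.16. The dim probe was not detected on any control array but was detected on all 4 Atg7 KO arrays, where its mean was at least 1.94-fold above the detectable level. Such a bound sets the mean of the brighter group against the lowest signal that was detected on each array of the dimmer group. The dim probe therefore lowers the gene value, and the difference seen by the bright probe is the larger of the pair.

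Anxa5 encodes annexin A5, an abundant protein that covers exposed phosphatidylserine and is widely used to stain dying cells. It was at 10.25, 10.38, 10.28 and 10.28 in controls, the tightest control group of the 10 genes (SD 0.056). In Atg7 KO livers it was at 12.69, 12.43, 12.54 and 12.18. The groups did not overlap, and the log2 fold change was 2.16 ± 0.13 (SE, limma adjusted p = 2.59e-06), or 4.48-fold.

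These 3 genes are printed with the 250 bases before their transcription start because they changed most in Atg7 KO livers. Sequences are from RefSeq on GRCm38.p6, and windows of 7 of the 10 genes were used here (not Anxa3, Anxa6 and S100a10). They are S100a11 at chr3:93520246-93520495 on the plus strand, Anxa2 at chr9:69453433-69453682 on the plus strand and Anxa5 at chr3:36475888-36476137 on the minus strand, each written 5′ to 3′ along its gene. Capitals mark matches on either strand to 4 short motifs: the TEAD core GGAATG, the AP-1 core TGANTCA, the core of the antioxidant response element TGACNNNGC and the GC box GGGCGG.
S100a11: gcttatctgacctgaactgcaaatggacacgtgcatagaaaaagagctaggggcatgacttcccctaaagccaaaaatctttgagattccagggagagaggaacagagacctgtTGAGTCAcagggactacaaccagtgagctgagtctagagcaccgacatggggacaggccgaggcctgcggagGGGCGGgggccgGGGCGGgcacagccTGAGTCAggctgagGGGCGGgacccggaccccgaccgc
Anxa2: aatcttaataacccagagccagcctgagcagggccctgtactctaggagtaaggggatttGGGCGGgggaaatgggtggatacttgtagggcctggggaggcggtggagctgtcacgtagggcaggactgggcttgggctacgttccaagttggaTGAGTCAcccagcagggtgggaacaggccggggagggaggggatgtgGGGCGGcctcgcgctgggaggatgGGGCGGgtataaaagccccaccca
Anxa5: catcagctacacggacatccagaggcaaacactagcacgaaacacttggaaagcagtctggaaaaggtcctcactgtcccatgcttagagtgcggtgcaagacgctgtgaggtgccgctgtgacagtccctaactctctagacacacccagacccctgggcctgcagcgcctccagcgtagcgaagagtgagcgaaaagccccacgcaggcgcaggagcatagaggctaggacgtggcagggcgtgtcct
The S100a11 window held 2 AP-1 cores and 3 GC boxes. The Anxa2 window held 1 AP-1 core and 3 GC boxes, and the Anxa5 window held none of the 4 motifs. Over 32851 mouse windows of this length, 6.75% had an AP-1 core, 32.7% a GC box, 12.6% a TEAD core and 10.2% a core of the antioxidant response element. The AP-1 and antioxidant cores can overlap when both are present, which did not occur in these windows. Among the other genes with a window, Anxa1 held 1 TEAD core, the first window of Anxa4 held 1 antioxidant core, both windows of Anxa7 held GC boxes and S100a6 held none. A match is a run of letters and was not tested as a binding site.

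Anxa3 encodes an annexin found in cells that migrate and proliferate. It stood at 7.57, 7.75, 7.87 and 7.995 in controls and at 9.17, 9.08, 9.99 and 8.88 in Atg7 KO livers. Every Atg7 KO liver exceeded every control, and replicate 3 was the highest. The log2 fold change was 1.48 ± 0.22 (SE, limma adjusted p = 0.000642), and its 2 probes gave 1.57 and 1.40.

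S100a6 encodes calcyclin, an S100 protein common in fibroblasts and proliferating epithelium. Its levels were 5.74, 5.94, 6.39 and 5.84 in controls and 7.53, 7.47, 8.48 and 7.22 in Atg7 KO livers. The groups did not overlap and replicate 3 was again the highest Atg7 KO liver. The log2 fold change was 1.70 ± 0.26 (SE, limma adjusted p = 0.000700), or 3.24-fold.

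Anxa4 encodes an annexin of secretory epithelia. It measured 7.08, 7.24, 7.42 and 7.51 in controls and 7.85, 7.78, 7.96 and 8.13 in Atg7 KO livers. The groups lay apart by a smaller step than those above, with a log2 fold change of 0.62 ± 0.14 (SE, limma adjusted p = 0.00654). The call was lost without the filter on dim probes (adjusted p = 0.0743) and on either chip alone, with 2 livers a group (adjusted p = 0.0560 and 0.0858). It was also lost among male livers alone (adjusted p = 0.0511), and thus in 4 of the 21 alternatives in all.

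Anxa1 encodes annexin A1, a glucocorticoid-induced protein that dampens inflammation through formyl peptide receptors. Its single probe was not detected on any control array (4.82, 4.55, 4.51 and 4.52) and was detected on all 4 Atg7 KO arrays (4.75, 5.03, 5.24 and 4.98). Control replicate 1 lay above the lowest Atg7 KO liver, so the groups overlapped. The mean of the Atg7 KO livers was at least 1.17-fold above what was detectable in controls, and limma's adjusted p was 0.0466. The gene left the called set in 6 of the 8 fits that dropped a single liver, namely those without Atg7 KO replicates 2, 3 and 4 and without control replicates 2, 3 and 4, with adjusted p between 0.0792 and 0.113. It also left with chip as a block (adjusted p = 0.0562), with cubic spline normalization (0.115), with quantiles and no background correction (0.118) and without the filter (0.0532), and in 14 of the 21 alternatives in all.

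**Figure D2:**
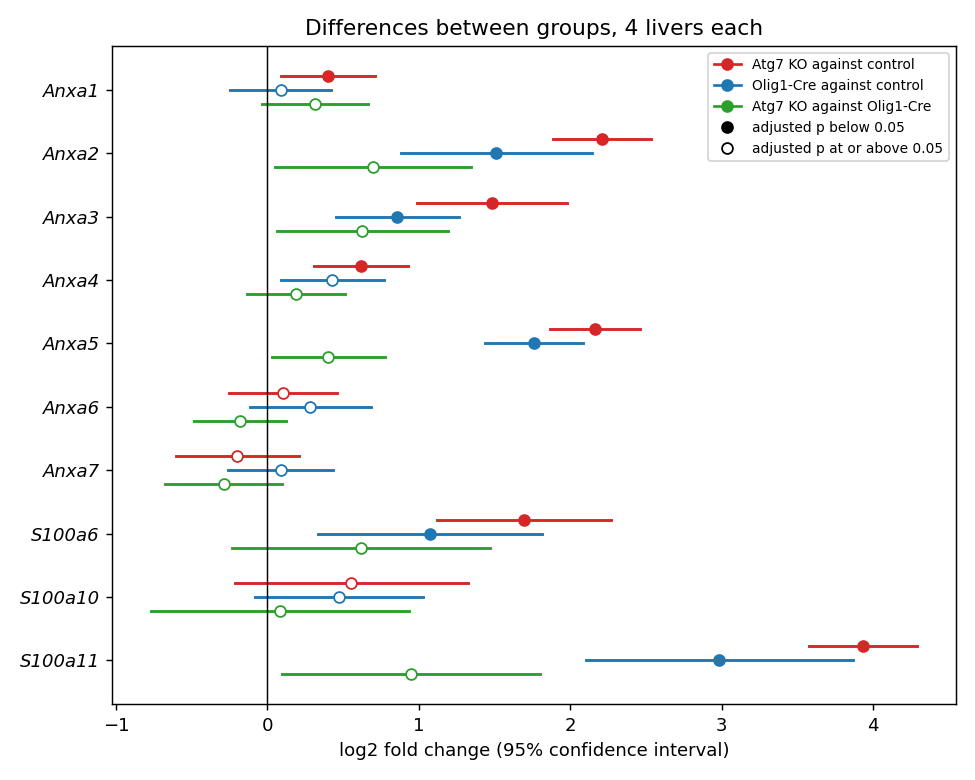
Log2 fold change of each gene (x axis) with its 95% confidence interval for the 3 comparisons, 4 livers per group, filled where limma's adjusted p was below 0.05. S100a11 lay furthest right against controls (3.94 for Atg7 KO and 2.99 for Olig1-Cre), and all points of Atg7 KO against Olig1-Cre are open.

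S100a10 encodes the partner that completes the annexin A2 heterotetramer. Its single probe read 9.26, 9.29, 9.26 and 8.64 in controls and 9.30, 8.80, 10.67 and 9.91 in Atg7 KO livers. Replicates 3 and 4 lay clearly above the controls, replicate 1 barely exceeded the highest control and replicate 2 lay among them. The difference of 0.56 on the log2 scale had a 95% confidence interval from -0.21 to 1.32 (limma adjusted p = 0.243). It differed between the chips, being -0.23 on chip 1 and 1.34 on chip 2, and passed on chip 2 alone (adjusted p = 0.0393). S100a10 and S100a11 are neighbours on chromosome 3, with 1 predicted gene, Gm29950, between them in the annotation.

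Anxa6 encodes a large annexin with a duplicated core that acts in endosomes and cholesterol transport. Its values were 7.16, 7.90, 7.52 and 7.37 in controls and 7.53, 7.70, 7.59 and 7.54 in Atg7 KO livers. By this median of 2 kept probes, the Atg7 KO livers fell inside the range of the controls. The log2 fold change was 0.10 (95% confidence interval -0.25 to 0.46, limma adjusted p = 0.650). Its pair of kept probes disagreed: the bright one gave 0.46 (adjusted p = 0.0580 over probes) and the dim one -0.25 (adjusted p = 0.480). On the bright probe every Atg7 KO liver lay above every control, though narrowly. The lowest Atg7 KO liver was at 10.183 and the highest control at 10.178. The dim probe therefore lowers the log2 fold change of the gene.

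Anxa7 encodes synexin, an annexin of secretory vesicles. It was dim in all groups, at 5.43, 5.35, 5.15 and 4.87 in controls and 4.66, 4.84, 5.16 and 5.36 in Atg7 KO livers. These values are the median of 2 kept probes. The only Anxa7 probe assigned to a RefSeq transcript was not detected on any array and was left out. The ranges overlapped, and the difference of -0.20 had a 95% confidence interval from -0.61 to 0.21 (limma adjusted p = 0.440).

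**Figure D3:**
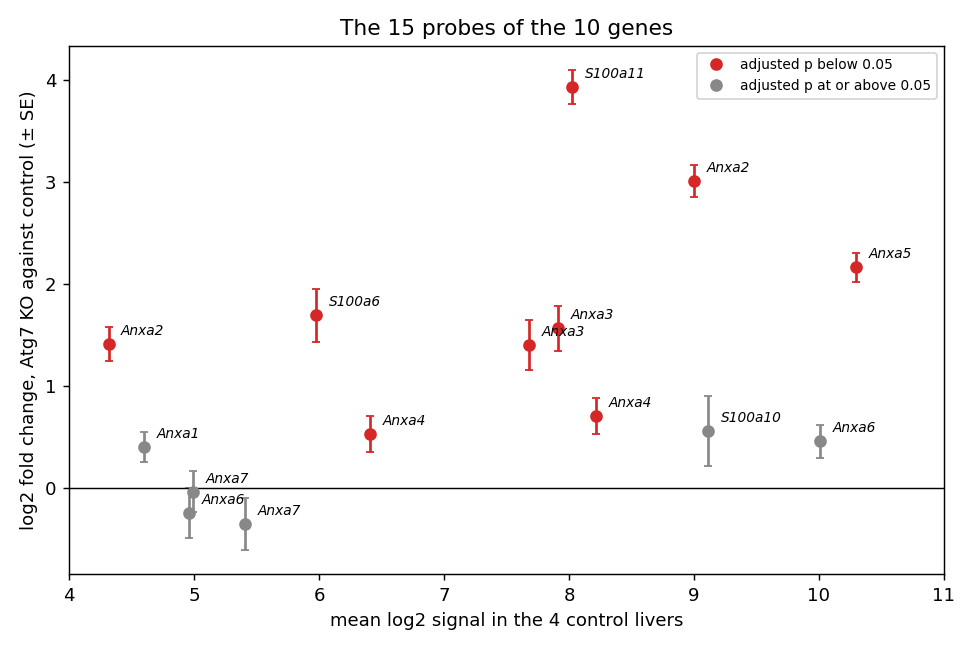
The 15 kept probes, with their mean log2 signal in the 4 control livers (x axis) against the log2 fold change of Atg7 KO over control with its SE (y axis), red where limma's adjusted p over all kept probes was below 0.05. Both probes of Anxa2, Anxa3 and Anxa4 lie above 0, and the bright Anxa2 probe (3.01) lies above the dim one (1.41).

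The Olig1-Cre livers were compared with the same 4 controls, so the comparisons share those samples and their values are given side by side. Of the 10 genes, 5 rose, 0 fell and 5 did not pass, against 12.8% of all genes rising and 8.44% falling. In 4 of the 10, every Olig1-Cre liver lay above every control liver, which held for 14.2% of all genes. The median log2 fold change was 0.66 over the 10 genes and 0.00041 over all genes.

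S100a11 read 11.75, 9.80, 11.77 and 10.71 in Olig1-Cre livers 1 to 4, all above the highest control at 8.44. Its log2 fold change was 2.99 ± 0.40 (SE, limma adjusted p = 0.00152), or 7.92-fold. Replicates 1 and 3 came close to the lowest Atg7 KO liver at 11.85, and replicate 2 lay midway between the groups.

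Anxa2 was at 8.65, 7.26, 8.69 and 8.09 in Olig1-Cre livers, again all above the controls, with a log2 fold change of 1.51 ± 0.28 (SE, limma adjusted p = 0.00658). Anxa5 was at 12.19, 11.67, 12.30 and 12.06, and its log2 fold change was 1.76 ± 0.15 (SE, limma adjusted p = 0.000125). Anxa3 was at 8.75, 8.15, 8.99 and 8.73, with a log2 fold change of 0.86 ± 0.18 (SE, limma adjusted p = 0.0109). For each of these the groups did not overlap.

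S100a6 was at 7.68, 6.03, 7.61 and 6.89 in Olig1-Cre livers, and replicate 2 lay below the highest control at 6.39. Its log2 fold change of 1.08 ± 0.33 passed narrowly (SE, limma adjusted p = 0.0444). The call was lost in the 7 fits that left out Olig1-Cre replicate 1, 3 or 4 or any of the 4 controls, with adjusted p between 0.0605 and 0.124, and in 12 of the 20 alternatives in all.

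The other genes did not pass in this comparison. Anxa4 was at 7.84, 7.40, 7.91 and 7.82, a log2 fold change of 0.43 (adjusted p = 0.0699), and it passed with chip as a block (adjusted p = 0.0477), with sex as a covariate (0.0206) and with all 12 arrays in 1 fit (0.0481). S100a10 was at 9.87, 8.95, 10.09 and 9.43, a log2 fold change of 0.47 (adjusted p = 0.201). Both were lowest in replicate 2, and without that liver Anxa4 gave 0.54 (adjusted p = 0.0165), S100a10 gave 0.68 (adjusted p = 0.0369) and 7 of the 10 genes rose (16.8% of all genes did). Anxa1 (4.61, 4.43, 4.68 and 5.03), Anxa6 (8.07, 7.53, 7.84 and 7.65) and Anxa7 (5.30, 5.03, 5.50 and 5.34) had log2 fold changes of 0.09, 0.28 and 0.09.

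Olig1-Cre replicate 2, the only male of its group, was the lowest of the 4 in 10 of the 10 genes. Among the 8 control and Olig1-Cre livers, the fitted difference of male minus female, averaged over the groups, was below 0 in all 10 genes, and 0 of the 10 passed limma's test with group as a covariate (46 of 10711 genes did). It was only -0.02 for Anxa1 and for Anxa7, in which the male control was the highest of the controls. The largest such differences were -1.02 for S100a11 (adjusted p = 0.213), -0.84 for S100a6 (adjusted p = 0.223) and -0.70 for Anxa2 (adjusted p = 0.233). With 1 male in each of these groups, sex and that animal cannot be told apart. The male Olig1-Cre liver lay above the male control in 7 of the 10 genes, among them S100a11 (9.80 and 7.70) and Anxa5 (11.67 and 10.25), and below it in 3, namely Anxa1 (4.43 and 4.82), Anxa7 (5.03 and 5.43) and S100a10 (8.95 and 9.26). When the 4 Atg7 KO livers were set against these 2 males together, of which 1 is a control and 1 carries Olig1-Cre, S100a11 gave 3.21 (adjusted p = 0.0128) and Anxa2 gave 1.98 (adjusted p = 0.00826), and 5 of the 10 genes rose (5.53% of all genes did).

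Atg7 KO and Olig1-Cre livers were then compared directly. Of the 10 genes, 0 rose and 0 fell by limma, while 0.0747% of all genes rose and 0.084% fell. At an unadjusted p below 0.05, 4 of the 10 were higher in Atg7 KO livers, as were 7.6% of all genes. S100a11 was the only gene of the 10 in which every Atg7 KO liver lay above every Olig1-Cre liver, as in 4.35% of all genes. Its difference was 0.95 on the log2 scale, with a 95% confidence interval from 0.10 to 1.80 (adjusted p = 0.299). The intervals ran from 0.05 to 1.35 for Anxa2, from 0.03 to 0.77 for Anxa5 and from -0.77 to 0.94 for S100a10. Because all Atg7 KO livers were male, a fit with sex as a covariate sets them against Olig1-Cre replicate 2 alone, the liver that was lowest of its group in all 10 genes, and assumes that it varies like the others. In that fit S100a11 gave 2.16 (adjusted p = 0.0258) and Anxa2 gave 1.61 (adjusted p = 0.0291), and these 2 genes passed (1.1% of all genes rose).

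Across the 12 livers Anxa2 and S100a11 moved closely together, with Pearson's r of 0.99, and Anxa5 and S100a11 had r of 0.98. These values span groups that differ. After each group's mean was subtracted, r was 0.92 for Anxa2 and S100a11 and 0.71 for Anxa5 and S100a11. The Olig1-Cre livers spread most, with SD of 0.67 for Anxa2 and 0.95 for S100a11. These SDs were 0.22 and 0.10 in Atg7 KO livers and 0.16 and 0.31 in controls. The Olig1-Cre livers therefore weigh most in the r of 0.92, above all replicate 2, at 7.26 and 9.80. Anxa2 and its partner S100a10 had r of 0.55, and 0.44 within groups. Among the annexins and S100 genes described here, S100a10 was closest to Anxa7 (0.74) and S100a6 (0.72) within groups. S100a6 had within-group r of 0.89 with Anxa2, 0.78 with S100a11 and 0.75 with Anxa5. Such values come from 12 arrays and are descriptive.

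**Figure D4:**
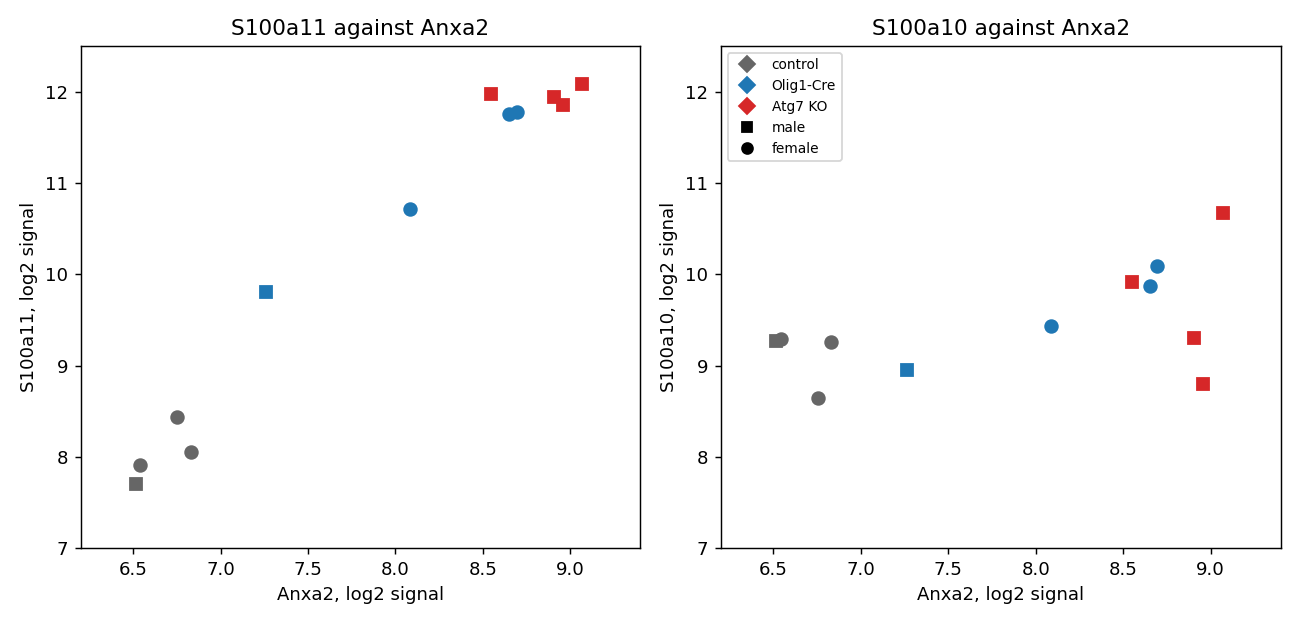
Log2 signal of S100a11 (left, y axis) and of S100a10 (right, y axis) against that of Anxa2 (x axis) in the 12 livers, coloured by group, squares for males and circles for females. S100a11 follows Anxa2 (r of 0.99), with Olig1-Cre replicate 2 between the controls and the other livers, while S100a10 spreads from 8.80 to 10.67 among the 4 Atg7 KO livers at similar Anxa2.

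Of the 10710 other genes, the 5 with profiles closest to Anxa2 over the 12 livers were Tagln2, an actin-binding protein of the transgelin family (r = 0.994), Pkia, an inhibitor of protein kinase A (r = 0.993), and Pbk, a kinase of dividing cells (r = 0.992). Next came Cdc42se1, which binds the small GTPase Cdc42 (r = 0.991), and Mfge8, a secreted protein that binds phosphatidylserine (r = 0.991). Within groups their r with Anxa2 ran from 0.936 for Mfge8 to 0.976 for Pbk.

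Genes that act with annexins and S100 proteins were counted in the same fits. Beside these counts and those of the cell markers, 19.5% of all genes rose and 15.3% fell in Atg7 KO livers. In Olig1-Cre livers 12.8% of all genes rose and 8.44% fell. Of 5 other annexins, 3 were measured, and 2 rose in Atg7 KO livers: Anxa13, an annexin of gut and kidney epithelium, at least 2.86-fold above the detectable level (adjusted p = 7.79e-05), and Anxa9, at least 1.65-fold above it (adjusted p = 0.00147), detected on 2 and 1 of the 4 control arrays. The median fitted log2 fold change of the 3 was 0.98, beside -0.01 over all genes. Anxa11 gave -0.17 (adjusted p = 0.299), and the probes of Anxa8 and Anxa10 were not detected on any array.

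Of 13 other S100 genes, 7 were measured, 1 rose and 1 fell in Atg7 KO livers, and their median was -0.33. S100a8, a subunit of the neutrophil protein calprotectin, rose by 1.37 (adjusted p = 0.0277), and its call was lost without Atg7 KO replicate 1, 3 or 4 or control replicate 3 (adjusted p from 0.0530 to 0.0761). S100a13, which assists the release of growth factors, fell by 0.64 (adjusted p = 0.0216), and lost its call without Atg7 KO replicate 2 or control replicate 1 or 4 (adjusted p from 0.0504 to 0.0591). In Olig1-Cre livers S100a8 rose by 1.93 (adjusted p = 0.0208), and 2 of the 7 rose in all, a count that ran from 0 to 2 when a liver was left out. The other 5 of the 7 did not pass in Atg7 KO livers.

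In the plasminogen system, which annexin A2 and S100A10 serve at the cell surface, 6 genes were measured, of which 3 rose and 1 fell in Atg7 KO livers (median 0.59). Plat, which encodes tPA, was detected on 1 of 4 control arrays and on all 4 Atg7 KO arrays, where its mean of 8.42 was at least 12.4-fold above the detectable level in controls (adjusted p = 3.57e-06). Plaur, the urokinase receptor, likewise detected on 1 of 4 control arrays, was at least 1.87-fold above it (adjusted p = 0.00196). In these bounds a control array that detected the gene counts with its own value. Plgrkt, a plasminogen receptor, rose by 0.83 (adjusted p = 0.0148). Plg, the hepatocyte product plasminogen itself, fell by 0.98 (adjusted p = 0.000790). In Olig1-Cre livers Plat rose at least 2.74-fold above the detectable level (adjusted p = 0.0106) and Plg fell by 0.85 (adjusted p = 0.00853). There 4 of 6 genes rose, and 1 to 4 when any 1 liver was left out. The direct difference in Plat between Atg7 KO and Olig1-Cre livers was 2.18 (adjusted p = 0.0908). Every Atg7 KO liver lay above every Olig1-Cre liver, as in 4.35% of all genes. Over 20 alternatives that difference ran from 0.09 to 3.31, and it passed with all 12 arrays in 1 fit.

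Among 15 measured genes of membrane repair and the cortical actin skeleton, 6 rose and 1 fell in Atg7 KO livers, and the median was 0.38. Ahnak, a giant scaffold that binds annexin A2 with S100A10, rose by 1.42 (adjusted p = 0.000384) and Flna, which crosslinks actin, by 1.22 (adjusted p = 0.00186). Capns1, the small calpain subunit, rose by 1.14 (adjusted p = 9.40e-05) and Chmp4b, which forms the ESCRT-III filament, by 1.06 (adjusted p = 0.00169). In Olig1-Cre livers 4 of the 15 rose and 1 fell (2 to 5 rising when any 1 liver was left out), with Ahnak at 0.96 (adjusted p = 0.0168).

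Of 2 measured genes among annexin A1 receptors and eicosanoid enzymes, Alox5ap, the partner of 5-lipoxygenase, rose by 0.98 in Atg7 KO livers (adjusted p = 0.00954), while Fpr2 gave 0.54 (adjusted p = 0.0766). Of 6 measured targets and receptors of S100 proteins, only Tlr4, a receptor for S100A8 with S100A9, rose, by 0.69 (adjusted p = 0.00354). The median of the 6 was -0.03, and 1 of 6 is no larger a share than the 19.5% of all genes that rose.

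Most measured markers of macrophages, of stellate cells and fibroblasts and of bile duct and progenitor cells also rose in Atg7 KO livers. Most neutrophil, lymphocyte, endothelial and mesothelial markers did not. The part of any of these cells in the results was not tested. Whole liver was measured, so more cells of a type and more RNA per cell cannot be told apart. Of 9 macrophage markers 8 rose in Atg7 KO livers (C1qb by 1.59), and their summed log2 level was 11.44 to 12.08 in controls, 12.27 to 13 in Olig1-Cre livers and 12.79 to 12.98 in Atg7 KO livers. Olig1-Cre replicate 2 was the lowest of its group there too. Of 12 markers of stellate cells and fibroblasts 8 rose (Col1a1 by 2.86), with summed levels of 9.49 to 10.24, 10.08 to 10.71 and 10.54 to 11.13 in the same order. Timp1, not detected on any control array, reached at least 4.01 times the detectable level in Atg7 KO livers.

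Of 5 measured markers of bile duct and progenitor cells 3 rose in Atg7 KO livers, and their summed level was 7.06 to 7.59 in controls, 7.55 to 8.08 in Olig1-Cre livers and 8.30 to 8.94 in Atg7 KO livers. Sox9 led with 2.24, while the defining probe of Epcam was not detected on any array and Krt19 was not detected on any control array. Of 5 neutrophil markers 0 rose and 0 fell by limma, with summed levels of 6.69 to 6.78 in controls and 6.81 to 7.33 in Atg7 KO livers, and of 4 lymphocyte markers 0 rose and 0 fell (6.58 to 7.36 and 6.83 to 7.37). In Olig1-Cre livers, where S100a8 and S100a9 rose, 2 of the 5 neutrophil markers also rose, with a summed level of 6.84 to 7.47. These were Mpo and Ltf, granule proteins not detected on any control array, each at least 1.19-fold above the detectable level (adjusted p = 0.0388 and 0.0415). Of 8 endothelial markers 1 rose and 2 fell (10.56 to 10.79 in controls and 10.18 to 10.44 in Atg7 KO livers). Of 2 mesothelial markers 1 fell (5.84 to 6.27 and 5.53 to 5.93).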

How the data were processed

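RNA of 12 whole livers was measured on Illumina MouseWG-6 v2.0 arrays, 4 per group as the labels give them. The authors deposited for each probe an intensity (the mean bead signal, not normalized) and a detection p-value against negative control beads. The deposited log2 values ran from 4.11 to 14.16, and each of 12 columns ranked probes as its own signals did. They differed by at most 0.0270 from neqc of the signals, with an offset of 16. In the methods the arrays were instead normalized in GenePattern by cubic spline. GenomeStudio and limma 3.22.1 appear in the submitters' processing notes.

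Probes with a detection p below 0.05 on at least 4 of 12 arrays were kept (19528 of 45281). Of these, 16727 had 1 symbol and gave 10711 genes by their median. Groups were compared in pairs with limma 3.58.1 in R 4.3.3 (lmFit and eBayes, two-sided, Benjamini-Hochberg over all genes, adjusted p below 0.05), after the script was tested on simulated data. Exact permutation tests used 70 relabellings. The number of arrays limits the precision, and litters are not given. The 10 genes, the gene lists and the alternatives were chosen with earlier results of these data known. The text names all 10 genes, the 5 profiles closest to Anxa2, up to 4 called genes per list by size in Atg7 KO livers and up to 2 per marker list. Anxa11, S100a9, Fpr2, Alb, Timp1, Epcam, Krt19, Mpo and Ltf were named after their values were seen.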

Additional observations from a re-analysis of the deposited data

Results flagged for a closer look

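Within the 3 groups, 30 sets of 4 livers were searched for a value far from the rest, and 3 were found. Chance alone marks about 1 in 20 such sets. S100a10 in control replicate 4 was 8.64, with the other controls between 9.26 and 9.29. Anxa4 in Olig1-Cre replicate 2 was 7.40, with the others between 7.82 and 7.91. Anxa1 in control replicate 1 was 4.82, with the others between 4.51 and 4.55, and its probe was not detected there or on any control array. The differences between the Atg7 KO and Olig1-Cre effects passed limma's test for 0 of the 10 genes.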

How the results depend on the processing

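The count of the 10 genes that rose was recomputed under each alternative, and 0 fell in any. In Atg7 KO livers it was 7, and 5 to 8 under the alternatives (6 to 7 without 1 liver). The share of all genes that rose moved too, from 19.5% to between 16.1% and 18.9% without 1 liver. It was lowest among males alone (5.53%, with 5 of the 10 genes) and highest when scaled to 1 median (45.3%, with 8 of the 10). S100a11, Anxa2, Anxa3, Anxa5 and S100a6 rose in all 21 alternatives. In Olig1-Cre livers the count was 5, and 4 to 7 without 1 liver, where 7.12% to 16.8% of all genes rose. On chip 1 alone, with 2 livers a group, the count was 0, and only 0.149% of all genes rose. For Atg7 KO against Olig1-Cre it was 0 in all fits but that with sex as a covariate, which gave 2 and has 1 liver, the male, as its Olig1-Cre arm (0 to 0 without 1 liver). Over all 10 genes and 610 fits of a gene, 567 stayed on the same side of the threshold, 34 lost a call, 9 gained one and 0 reversed.

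Scaling each array to 1 median instead of equal quantiles moved the median of all genes by 0.59 in Atg7 KO livers and 0.40 in Olig1-Cre livers. It changed the split of calls among all genes from 2091 higher and 1638 lower to 4854 and 163 in Atg7 KO livers, and from 1376 and 904 to 1734 and 38 in Olig1-Cre livers. S100a11 then gave 4.61 and S100a10 passed at 1.28 (adjusted p = 0.0334). The log2 fold change of S100a13 turned to 0.21 under that scaling, below the shift of all genes. Without the filter on dim probes, Plat gave 0.13, because undetected probes then entered its median. No paired analysis was possible because the labels give the livers no replicate numbers. Fits of Atg7 KO against control with sex as a covariate likewise rest on control replicate 1, the only male, and those among males on 1 control with 1 Olig1-Cre liver, so neither separates sex from these animals. Detection limits Anxa1, Anxa7 and the dim Anxa2 probe.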

Other observations

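The 2 controls of the Alb line and the 2 of the Olig1 line were close for the genes that changed most. The mean log2 signal in Alb line and Olig1 line controls was 7.88 and 8.18 for S100a11, 6.67 and 6.65 for Anxa2 and 10.26 and 10.33 for Anxa5. The widest gaps were 0.30 or less in size, for S100a11, Anxa6 and S100a10. With 2 livers each, these values carry no test.

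Atg7 KO replicate 3 was the highest of its group in 6 of the 10 genes, and Olig1-Cre replicate 3 in 7 of the 10. The lowest Atg7 KO liver was replicate 4 in 4 genes, replicate 1 in 3 and replicate 2 in 3. On chip 1 and chip 2 the log2 fold change in Atg7 KO livers was 4.09 and 3.78 for S100a11, 2.40 and 2.02 for Anxa2, 2.25 and 2.08 for Anxa5 and 1.66 and 1.74 for S100a6. Anxa7 gave -0.64 and 0.24, so its direction differed between the chips.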
